A study of Mus musculus with 10 samples.

Results

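The nuclear genes of oxidative phosphorylation were taken from the deposited gene table as every gene whose KEGG annotation places it on the oxidative phosphorylation map and whose symbol lacks the mitochondrial prefix mt-. Of 56691 genes in the table, 343 met this rule, and a further 13 genes on the same map were mitochondrially encoded. By symbol and GENCODE biotype the 343 genes fell into several classes. There were 38 subunit genes of complex I, 4 of complex II, 9 of complex III, 19 of complex IV and 16 of complex V. Another 4 were assembly genes of complex IV, 24 belonged to the V-type ATPase, 3 to the P-type H+/K+ ATPases and 3 were pyrophosphatases. The remainder were 191 pseudogenes or predicted genes, 25 nuclear copies of mitochondrial genes and 7 genes known by another name. No read was counted on 111 of the 343 genes in any mouse, and 142 passed the filter on low counts and were tested. The tested genes were 80 of the 86 subunit genes of complexes I to V, 18 V-type ATPase genes, 4 assembly genes, 3 pyrophosphatases, 1 P-type ATPase, 7 genes of another name, 10 nuclear copies and 19 pseudogenes.

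Oxidative phosphorylation takes place in the inner mitochondrial membrane. Complexes I and II pass electrons from NADH and succinate to ubiquinone, complex III passes them on to cytochrome c, complex IV hands them to oxygen, and complex V uses the resulting proton gradient to make ATP. Most subunits are encoded in the nucleus, and colonocytes depend on this pathway to burn the butyrate made by gut bacteria. The KEGG map also includes the V-type ATPase, which acidifies lysosomes, and the P-type proton pumps of the cell surface.

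Colon RNA came from male C57BL/6 mice that were 8 weeks old at the start, with 5 mice in each of 2 groups. The DSS group drank 3% dextran sulfate sodium (DSS), an agent that injures the colonic epithelium, for 7 days. The ceAF group drank the same DSS and then received early chick embryo amniotic fluid (ceAF) by gavage at 15 mL/kg for 10 days. No mouse without DSS was analysed here, so every difference below is ceAF against DSS alone. The reads counted on genes numbered from 14676471 to 19901549 in a mouse, with medians of 16426125 in DSS and 16058782 in ceAF mice. Any pair of mice in a group differed by far more than counting error, with a chi-square per degree of freedom of 13.2 at the lowest. The mouse ceAF-1 stood apart from the other ceAF mice, with values of 102 to 133 against them, while pairs among the other ceAF mice gave 24 to 87.5. DSS-5 gave 75.3 to 87.3 against the other DSS mice, whose own pairs gave 13.2 to 47.3. Epithelial identity was present in each sample, as *Krt8*, a keratin of simple epithelia, lay between 1579 and 2564 FPKM (the deposited level, a count scaled to exonic length and to the library's total).

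The comparison asked how the genes of the pathway differed after ceAF was given to DSS-treated mice. The nuclear subunit genes leaned to lower values in ceAF mice, by small amounts. Of the 80 tested, 58 had a log2 fold change below 0 (72.5%, against 48.6% of all genes), and their median was -0.10 against 0.01 for all genes. Complex IV had the lowest median, -0.15 with 14 of 15 genes lower, followed by complex I with -0.11 and 26 of 37 lower. Medians of complexes II, III and V lay between -0.04 and -0.02. The 13 mitochondrially encoded genes were all above 0, with a median of 0.45.

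No member and no other gene of the table had an adjusted p-value under 0.05 by edgeR's quasi-likelihood test (0% of the 16545 genes tested), and the smallest adjusted p-value was 0.656. At an unadjusted p under 0.05, 4 of the 142 tested members were lower in ceAF mice and 4 were higher, against 3.67% and 3.26% of all genes tested and 6.93% over both directions. The 4 lower members were 3 V-type ATPase genes and the copper chaperone gene *Cox17*. None of the 80 tested subunit genes of complexes I to V passed that limit by edgeR or DESeq2, while *Ndufa2*, named after its value was seen, did so, lower, by limma voom, as did 20 of them without ceAF-1 by edgeR (against 5.94% of all genes). By limma-trend on log2 FPKM, 6 of 82 tested subunit genes passed it, all lower, in each setting run (against 3.18% to 3.91% of all genes). DESeq2 called 4 members lower and 4 higher without adjustment, against 4.27% and 3.4% of all genes, and limma voom called 5 and 3, against 3.1% and 3.12%. At the adjusted limit DESeq2 called 28 genes of the table, none of them a member, and limma voom 0. The groups did not overlap for 2 members, both higher in ceAF, where 0.774% of all genes were so. 1 of them, *Gm4076*, also among the 4 higher members, passed the filter on low counts only through its ceAF values. No member was lower in every ceAF mouse than in every DSS mouse, against 0.465% of all genes. The number of lower members was 28 without ceAF-1 (19.7%, against 5.94% of all genes), 0 without ceAF-4 (against 3.14%), 2 without ceAF-2 (against 3.22%) and 1 without any of DSS-1, DSS-3, DSS-4, ceAF-3 or ceAF-5 (against 1.92% to 3.35%).

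Single mice also moved the lean of the 80 subunit genes. Without ceAF-4 their median was 0.00 with 41 genes lower, without DSS-4 it was -0.02 with 46 lower, and without ceAF-3 it was -0.05 with 56 lower. Without ceAF-1 it was -0.19 with 73 lower, and 20 of the 80 (25%, against 5.94% of all genes) then passed the unadjusted limit in that direction. Without DSS-1 it was -0.14 with 74 lower. The smallest adjusted p-value of edgeR's test among the 80 was 0.739 with all mice and ran from 0.373, without ceAF-1, to 1, without DSS-1. By complex, the medians of I, II, III, IV and V without ceAF-1 were -0.21, -0.11, -0.16, -0.30 and -0.12. Without ceAF-4 they were -0.03, 0.05, 0.10, -0.08 and 0.06, and without DSS-4 they were -0.02, 0.01, 0.06, -0.05 and 0.02, so only complexes I and IV kept a median below 0 there. Without ceAF-3 the medians were -0.04, -0.04, 0.02, -0.12 and -0.01, and without DSS-5 they were -0.09, 0.01, -0.02, -0.17 and -0.04. Without DSS-1 the medians were -0.13, -0.12, -0.08, -0.20 and -0.10.

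A score was computed in each mouse as the mean, over the tested genes of a complex, of log2 CPM (a count scaled to library size after TMM normalization) relative to each gene's mean over the 10 mice. Over complexes I to V the score was -0.18, 0.03, 0.06, 0.31 and 0.04 in DSS-1 to DSS-5, and 0.28, 0.04, -0.17, -0.41 and -0.01 in ceAF-1 to ceAF-5. DSS-4 and ceAF-1 were thus high, ceAF-4 was lowest, DSS-1 and ceAF-3 were also low, and the groups overlapped. The means were 0.05 ± 0.17 in DSS and -0.05 ± 0.26 in ceAF (SD, n = 5 each), so the difference was smaller than the SD within either group.

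The complexes shared their lowest mouse. The ceAF-4 score was -0.41 for complex I, -0.33 for complex II, -0.47 for complex III, -0.37 for complex IV and -0.42 for complex V, the lowest of the 10 mice in each. At the upper end, ceAF-1 had 0.31, 0.25, 0.36, 0.17 and 0.28 and DSS-4 had 0.30, 0.21, 0.33, 0.41 and 0.26 in the same order. ceAF-1 was highest for complexes I, II, III and V, while for complex IV DSS-4 was highest and DSS-3, at 0.18, next to it. The complex IV score weighs all genes alike, also *Ndufa4l2*, *Cox4i2* and *Cox6b2* with few counts (3 to 27, 5 to 21 and 26 to 71). For these ceAF-1 had 0.229, 0.382 and 1.98 CPM and DSS-4 0.769, 1.34 and 4.55 CPM. Of the other genes of complex IV, DSS-4 was highest for *Cox6a1*, *Cox6b1*, *Cox8a* and *Ndufa4*, and ceAF-1 for the rest. Gene by gene, ceAF-4 held the lowest value of the 10 mice for 53 of the 80 subunit genes, or 66.2%, while it was lowest for 11.2% of all genes tested. The highest value was in ceAF-1 for 39 genes (48.8%, against 20.4% of all genes) and in DSS-4 for 31 genes (38.8%, against 7.17%). Which cells carried these transcripts was not measured: in bulk colon, fewer cells of a type and less RNA per cell cannot be told apart.

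**Figure D1:**
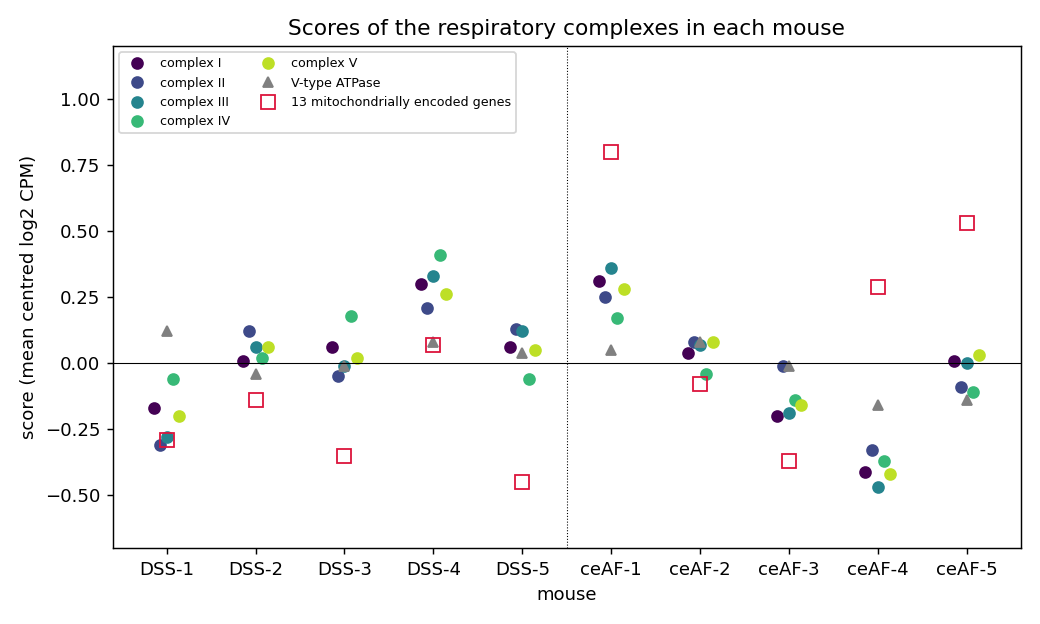
Score of each complex (y axis, mean centred log2 CPM over its tested genes) in each of the 10 mice (x axis), with the V-type ATPase as triangles and the 13 mitochondrially encoded genes as open squares. Complexes I to V lie close together within a mouse and are lowest in ceAF-4, while the mitochondrially encoded genes reach 0.80 in ceAF-1 and 0.29 in ceAF-4.

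**Figure D2:**
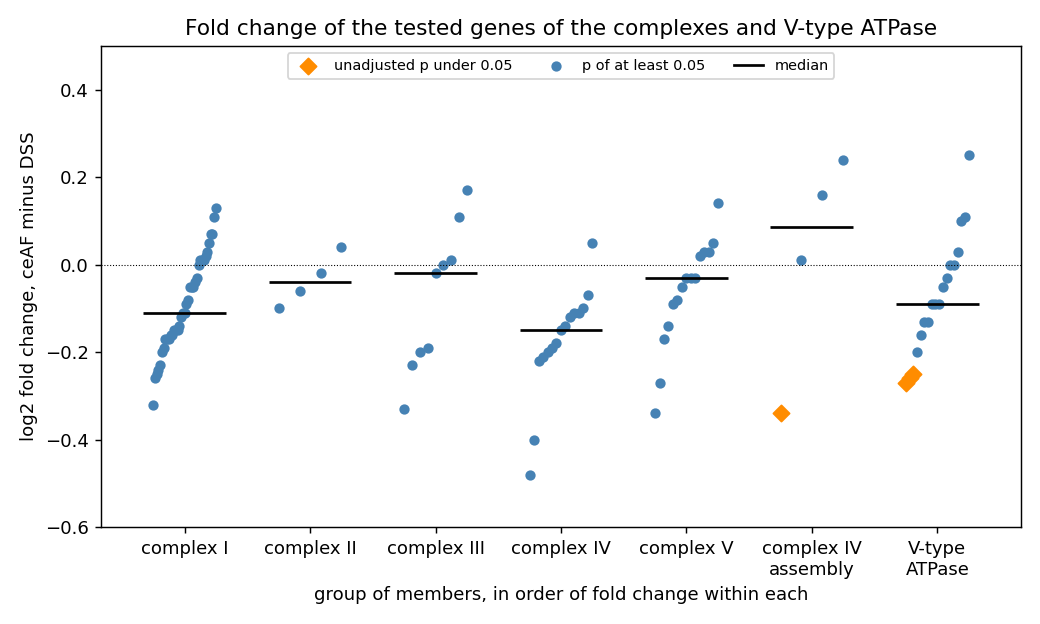
Log2 fold change, ceAF minus DSS (y axis), of each tested gene of complexes I to V, the complex IV assembly genes and the V-type ATPase (x axis), the other members not being drawn, with medians as black lines and genes at an unadjusted p under 0.05 as orange diamonds. The diamonds drawn are *Cox17* and 3 V-type ATPase genes, and the medians of complexes I to V lie between -0.15 and -0.02.

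Complex I, the NADH dehydrogenase, was the largest group. Of its 37 tested genes 26 were lower and 11 higher in ceAF mice, with log2 fold changes from -0.32 to 0.13 and a median of -0.11. The remaining gene, *Ndufb11b*, had no count. Levels of the tested genes ran from 4.28 to 118 FPKM, with a median of 45.5, although most of the subunits are assembled in equal numbers. The lowest was *Ndufb2*, named after its value was seen, whose FPKM rests on a deposited exonic length of 5628 bases. The most abundant was *Ndufb9*, an accessory subunit, at 127 ± 9.62 FPKM in DSS and 110 ± 23.3 FPKM in ceAF mice (SD, n = 5 each).

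The core subunit *Ndufs1* (chr1:63182755-63215992 as deposited, build not named), which carries iron-sulfur clusters of the electron path, was measured at 92.3, 144, 134, 139 and 145 CPM in DSS-1 to DSS-5 and at 134, 147, 143, 124 and 161 CPM in ceAF-1 to ceAF-5. DSS-1 was lowest, well apart from the other DSS mice, and the groups overlapped. Its log2 fold change was 0.11 ± 0.13 (SE), with an exact permutation p of 0.468. *Ndufv1*, which binds NADH, lay at 48.9 ± 7.54 FPKM in DSS and 46.2 ± 6.18 FPKM in ceAF mice. At the lower end of complex I stood *Ndufa2*, a small accessory subunit named here after its value was seen. It had 38.9, 34.8, 36.6, 44.1 and 36.3 CPM in the DSS mice and 44.5, 33.5, 22.8, 22.7 and 29.2 CPM in the ceAF mice. The mice ceAF-2 to ceAF-5 lay below every DSS mouse and ceAF-1 above all of them, and the log2 fold change was -0.32 ± 0.18 (SE) with an exact permutation p of 0.111. By limma voom it was -0.38 with an unadjusted p of 0.0499, and without ceAF-1 it was -0.50 with an unadjusted edgeR p of 0.0043. With any other mouse left out, *Ndufa2* did not pass the unadjusted limit by edgeR.

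Complex II, succinate dehydrogenase, is encoded wholly in the nucleus and is shared with the citric acid cycle. All 4 genes were tested, 3 were lower, and the median log2 fold change was -0.04. The flavoprotein gene *Sdha* (chr13:74470373-74498399) had 262, 390, 347, 383 and 436 CPM in the DSS mice and 423, 349, 359, 280 and 327 CPM in the ceAF mice. DSS-1 and ceAF-4 were the low mice of their groups, and the ranges overlapped almost fully. *Sdhb*, the iron-sulfur subunit, lay at 67 ± 8.61 FPKM in DSS and 67.1 ± 9.53 FPKM in ceAF mice. The membrane anchor *Sdhd* was the most abundant at 214 ± 20.5 FPKM in DSS and 196 ± 9.66 FPKM in ceAF mice, a log2 fold change of -0.10 ± 0.11 (SE).

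Complex III, the cytochrome bc1 complex, had 9 tested genes, of which 5 were lower and 4 higher, with a median of -0.02. *Uqcrc2* (chr7:120234399-120258747) had 168, 275, 247, 272 and 258 CPM in DSS mice and 287, 297, 277, 222 and 291 CPM in ceAF mice. DSS-1 and ceAF-4 were each well below the rest of their group, and the log2 fold change was 0.17 ± 0.14 (SE; exact permutation p of 0.286), or 0.07 without DSS-1. The other core protein gene, *Uqcrc1*, lay at 60.5 ± 8.1 FPKM in DSS and 64.1 ± 9.01 FPKM in ceAF mice. Cytochrome c1, from *Cyc1*, lay at 93.9 ± 13.1 and 92.3 ± 14.6 FPKM, and the Rieske protein gene *Uqcrfs1* at 182 ± 30.3 and 180 ± 34.4 FPKM, in DSS and ceAF mice respectively. *Uqcrb*, which encodes a small subunit, was the most abundant at 264 ± 34.5 and 255 ± 49.4 FPKM. The gene with the lowest fold change was *Uqcrh*, the hinge protein, named after its value was seen. Its CPM was 258, 262, 274, 343 and 279 in DSS mice and 321, 221, 189, 172 and 224 in ceAF mice. Every ceAF mouse but ceAF-1 lay below every DSS mouse, with a log2 fold change of -0.33 ± 0.17 (SE) and an exact permutation p of 0.0794. Without ceAF-1 the log2 fold change of *Uqcrh* was -0.49, with an unadjusted edgeR p of 0.00242. It did not pass the unadjusted edgeR limit with all mice or with any other mouse left out.

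Complex IV, cytochrome c oxidase, passes electrons to oxygen. Here *Ndufa4* and *Ndufa4l2*, named for complex I, were counted with complex IV, where the protein is found. Of 15 tested genes 14 were lower in ceAF mice and only *Cox7b* was higher, none at an unadjusted p under 0.05. Without ceAF-1, 6 of the 15 passed that limit, all lower, where 5.94% of all genes did so. *Cox4i1* (chr8:121394961-121400946), the most abundant gene of the complex, had 532, 612, 659, 765 and 574 CPM in the DSS mice and 921, 471, 440, 394 and 483 CPM in the ceAF mice. ceAF-1 was the highest of the 10 mice and the other 4 ceAF mice were all below every DSS mouse. With all mice its log2 fold change was -0.21 ± 0.22 (SE; exact permutation p of 0.278). Without ceAF-1 it was -0.49, with an unadjusted edgeR p of 0.00301. *Cox4i1* did not pass the unadjusted edgeR limit with any other mouse left out.

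The tissue-specific isoforms of complex IV showed which forms colon uses. The common isoform *Cox4i1* stood at 374 FPKM over the 10 mice and *Cox4i2*, an isoform of lung and hypoxic tissue, at 0.841 FPKM. *Cox6a1* lay at 370 ± 48.2 FPKM in DSS and 314 ± 67.7 FPKM in ceAF mice, while the muscle isoform *Cox6a2* had at most 6 counts in any mouse. *Cox7a2* averaged 140 FPKM and the muscle isoform *Cox7a1* 18.6 FPKM. *Cox8a* averaged 365 FPKM, *Cox8b* had at most 5 counts in a mouse and *Cox8c* none. *Cox6b1* averaged 327 FPKM against 2.43 FPKM of *Cox6b2*, a testis isoform, and *Cox7b* averaged 173 FPKM while *Cox7b2* had no count. *Cox6b2* had the lowest fold change of the complex, -0.48 ± 0.30 (SE; exact permutation p of 0.198), on 26 to 71 counts per mouse. Without DSS-5 this was -0.62, with an unadjusted edgeR p of 0.0494, and *Cox6b2* did not pass that limit with any other mouse left out. *Ndufa4* averaged 46.9 FPKM and *Ndufa4l2*, a gene induced by hypoxia, 0.859 FPKM.

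Among the 4 complex IV assembly genes on the map, *Cox10*, *Cox11* and *Cox15* had log2 fold changes above 0 and *Cox17* one below 0. *Cox17* (chr16:38167353-38173125), which brings copper to the enzyme, had 46.2, 41.3, 47.1, 55.7 and 39.7 CPM in DSS mice and 47.8, 39, 33.1, 30.2 and 31.6 CPM in ceAF mice. ceAF-2 to ceAF-5 lay below every DSS mouse and ceAF-1 among the high ones. The log2 fold change was -0.34 ± 0.15 (SE), with an unadjusted edgeR p of 0.0387 and an exact permutation p of 0.0556. It passed the unadjusted limit only without DSS-2, DSS-5 or ceAF-1, and the lowest absolute value, -0.26, was without DSS-4 (edgeR p of 0.104). *Cox15*, which makes heme A, was the most abundant of the 4 by FPKM, at 11.2 ± 1.41 FPKM in DSS and 12.3 ± 0.926 FPKM in ceAF mice. The FPKM of *Cox17* rests on a deposited exonic length of 5773 bases, its whole span, so this ranking depends on the length used. In CPM the DSS means were 54.7 for *Cox15* and 46 for *Cox17*.

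Complex V, the ATP synthase, had 15 tested genes, 10 lower and 5 higher, with a median of -0.03. The symbol *Atp5o* stands for 2 entries of the table, of which 1 had no count and the other was tested. *Atp5b* (chr10:127919142-127926260), the catalytic beta subunit, had 882, 1275, 1151, 1182 and 1341 CPM in DSS mice and 1367, 1435, 1329, 1042 and 1265 CPM in ceAF mice. DSS-1 was lowest and ceAF-4 next, the groups overlapped, and the log2 fold change was 0.14 ± 0.14 (SE; exact permutation p of 0.317), or 0.06 without DSS-1. *Atp5a1*, the alpha subunit, had the highest mean over the 10 mice of the subunit genes of the 5 complexes, 393 FPKM. It lay at 392 ± 59 FPKM in DSS mice, where *Cox4i1* was higher at 407 ± 45.9 FPKM, and at 394 ± 39.2 FPKM in ceAF mice. *Atp5c1*, the gamma subunit of the rotating stalk, lay at 175 ± 24 and 177 ± 17.3 FPKM. *Atp5g1*, *Atp5g2* and *Atp5g3*, also named after their values were seen, encode the same mature ring protein, and averaged 20.6, 59.8 and 175 FPKM, so most of its transcripts came from *Atp5g3*. The small membrane subunit gene *Atp5k*, named after its value was seen, was lowest of the complex at a log2 fold change of -0.34 ± 0.19 (SE). Its CPM was 37, 43.1, 42, 57.1 and 40.3 in DSS mice and 48.1, 39.3, 27.8, 23.7 and 34.4 in ceAF mice, with ceAF-3, ceAF-4 and ceAF-5 below every DSS mouse and the groups overlapping through ceAF-1 and ceAF-2. Without ceAF-1 the log2 fold change was -0.49, with an unadjusted edgeR p of 0.0164. *Atp5k* did not pass the unadjusted edgeR limit with all mice or with any other mouse left out.

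The lean was larger among short genes than among long ones. Split at their median exonic length of 1578 bases, 34 of the 40 shorter subunit genes of complexes I to V were lower in ceAF mice, with a median of -0.16 for the log2 fold change, and 24 of the 40 longer ones, with a median of -0.03. Among all genes tested, 57.2% of those at or under that length and 47.1% of those over it were lower, with medians of -0.05 and 0.01. Genes at or under that length were more often lower in both sets, and the part of length in the result was not tested.

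**Figure D3:**
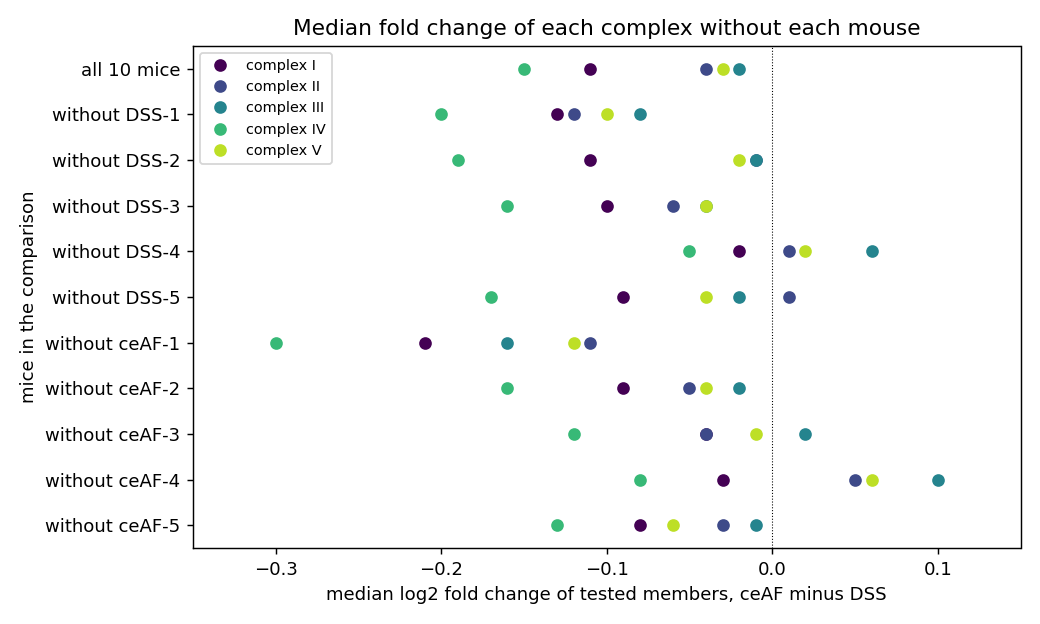
Median log2 fold change of the tested genes of each complex (x axis) with all 10 mice and without each mouse in turn (y axis). Each median moves to lower values without ceAF-1 and to higher values without ceAF-4 or DSS-4.

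The V-type ATPase hydrolyses ATP to pump protons and shares no subunit with the respiratory chain. Of its 18 tested genes 12 were lower, with a median of -0.09. Its scores were 0.12, -0.04, -0.01, 0.08 and 0.04 in the DSS mice and 0.05, 0.08, -0.01, -0.16 and -0.14 in the ceAF mice. ceAF-4 was again lowest, with ceAF-5 close to it, but DSS-1, low for complexes I to V, was highest here. Leukocyte and T cell markers had the same extreme mice, with scores of 1.74 and 1.14 in DSS-1 and -1.21 and -1.03 in ceAF-4. They were also low in ceAF-1 (-1.14 and -0.83) and DSS-5 (-0.58 and -0.77), where the V-type score was 0.05 and 0.04. The part of these cells in the result was not tested. At an unadjusted p under 0.05, 3 genes were lower by edgeR (16.7%, against 3.67% of all genes) and none was higher (against 3.26%). The number lower was 0 without ceAF-4 (against 3.14% of all genes), 1 without any of DSS-1, DSS-3, DSS-4, ceAF-3 or ceAF-5 (5.56%, against 1.92% to 3.35%), and 4 without ceAF-1 (22.2%, against 5.94%). The median was -0.03 without DSS-5 or ceAF-5, -0.04 without DSS-1 and -0.05 without ceAF-4.

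*Atp6v1b2* (chr8:69541298-69566363), the common form of the B subunit of the catalytic head, had 138, 130, 127, 126 and 134 CPM in DSS mice and 107, 114, 128, 102 and 101 CPM in ceAF mice. Only ceAF-3 reached the DSS range. The log2 fold change was -0.25 ± 0.09 (SE), with an unadjusted edgeR p of 0.0165 and an exact permutation p of 0.0238. Without ceAF-4 the edgeR p was 0.0504, and without any other mouse it stayed under 0.05. *Atp6v1f*, a small subunit of the rotor, had 59, 48, 50.6, 55.1 and 46.5 CPM in DSS mice and 48.9, 47.6, 39.7, 35 and 43.3 CPM in ceAF mice, a log2 fold change of -0.27 ± 0.11 (SE; exact permutation p of 0.0397). The mice ceAF-1 and ceAF-2 were within the DSS range and the other 3 ceAF mice below it. *Atp6v0e*, of the membrane sector, had 81, 73.5, 74.1, 80.4 and 85.9 CPM in DSS mice and 80.9, 70.7, 65.9, 59.7 and 52 CPM in ceAF mice. ceAF-1 was the exception among the ceAF mice, and the log2 fold change was -0.26 ± 0.12 (SE; exact permutation p of 0.0397). With a mouse left out, *Atp6v1f* no longer passed the unadjusted edgeR limit without DSS-1, DSS-3, DSS-4, ceAF-3, ceAF-4 or ceAF-5 (p up to 0.0874), and *Atp6v0e* passed it only without ceAF-1 (p otherwise up to 0.114).

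Colon again used the common isoforms. The kidney and epididymis forms *Atp6v0a4*, *Atp6v1b1*, *Atp6v1c2* and *Atp6v1g3*, the osteoclast form *Atp6v0d2* and the testis form *Atp6v1e2* had at most 8 counts in any mouse and were not tested. The a subunit came from *Atp6v0a2*, *Atp6v0a1* and *Tcirg1*, at 33.2, 19.7 and 16.8 FPKM over the 10 mice. *Atp6v0a2* had the highest fold change of the group, 0.25 ± 0.16 (SE; exact permutation p of 0.198). Without ceAF-5 it was 0.34, with an unadjusted edgeR p of 0.0413. *Atp6v1g1* was the most abundant gene at 100 FPKM, and its brain form *Atp6v1g2* averaged 2.24 FPKM. Means over the mice were 56.8 FPKM for *Atp6v0d1*, 22.7 FPKM for *Atp6v1e1* and 7.82 FPKM for *Atp6v1c1*.

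The P-type pumps were represented in colon by *Atp12a* (chr14:56602525-56626007), the colonic H+/K+ ATPase of the apical membrane, while the gastric genes *Atp4a* and *Atp4b* had at most 8 counts in any mouse. *Atp12a* had 49.3, 437, 177, 355 and 1624 CPM in DSS-1 to DSS-5 and 39.8, 1589, 1027, 11.7 and 802 CPM in ceAF-1 to ceAF-5. DSS-5 and ceAF-2 were highest and ceAF-4, ceAF-1 and DSS-1 lowest, so both groups held high and low mice. Its SD of log2 CPM over the 10 mice was 2.46, the largest of all tested members. The median was 0.25 for the subunit genes of complexes I to V and 0.33 for all genes. It was 0.21 for all genes with a mean CPM in the interquartile range of those subunit genes. The log2 fold change was 0.39 ± 1.14 (SE; exact permutation p of 0.849), and it was -0.39 by limma voom, -0.16 without ceAF-2 and 1.45 without DSS-5. *Car1*, a carbonic anhydrase of surface colonocytes, also varied widely but in another order, at 931, 3749, 6393, 3781 and 93.3 FPKM in DSS mice and 8530, 644, 2598, 630 and 431 FPKM in ceAF mice. ceAF-1 was highest for *Car1* and among the lowest for *Atp12a*, DSS-5 the reverse, and the part of surface cells in the values of *Atp12a* was not tested.

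The 3 pyrophosphatase genes all had fold changes below 0, with a median of -0.07. *Ppa1*, the cytosolic enzyme, was the most abundant at 70.3 ± 14.5 FPKM in DSS and 68.8 ± 30.6 FPKM in ceAF mice. Its CPM was 165, 183, 167, 237 and 264 in DSS mice and 82.6, 286, 245, 135 and 248 in ceAF mice. The wider spread in ceAF mice came from ceAF-1 and ceAF-4, which were the lowest of the 10.

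The 7 genes of another name entered the map through a KEGG identifier that a named subunit or assembly gene also carries. In 5 cases the table places the gene so that it overlaps that named partner on the opposite strand. The pairs are *Mrpl47* with *Ndufb5*, *Pdzd9* with *Uqcrc2*, *Smim27* with *Ndufb6*, *Tom1l1* with the assembly gene *Cox11* and *Vmac* with *Ndufa11*. Whether strand was used in counting is not given in the sources used here, so reads in the overlaps cannot be assigned to either gene. *Tcf20* lies 454114 bases from *Ndufa6*, and *Zmat4* is on another chromosome than *Ndufs8*. *Tom1l1* (chr11:90534291-90579192) had 85.4, 96.9, 95.1, 97 and 68.4 CPM in DSS mice and 124, 98, 116, 123 and 85.3 CPM in ceAF mice. ceAF-5 alone fell inside the DSS range, and the log2 fold change was 0.30 ± 0.14 (SE), with an unadjusted edgeR p of 0.0484 and an exact permutation p of 0.0635. The edgeR p was above 0.05 without DSS-1, DSS-5, ceAF-1, ceAF-3 or ceAF-4, at most 0.0982. *Zmat4*, a zinc finger gene, ranged from 0 to 7.10 CPM, the latter in ceAF-1.

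Most pseudogenes and predicted genes were silent or nearly so, as 99 of 191 had no count and 19 were tested. Of these 16 were lower in ceAF mice, with a median of -0.06 and a range of -0.71 to 0.12, and none passed the unadjusted limit by edgeR. Without ceAF-1 the median was -0.24 and *Gm10221*, *Gm6969* and *Ndufs6b*, named after their values were seen, passed it lower (15.8%, against 5.94% of all genes). Without DSS-4 or ceAF-4 the median was -0.02. The score of these genes followed that of the subunits, with -0.06, 0.04, 0.06, 0.29 and 0.07 in DSS mice and 0.39, -0.07, -0.14, -0.48 and -0.10 in ceAF mice. Their counts are uncertain, because reads from a subunit's transcript can be assigned to a processed copy of nearly the same sequence.

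The nuclear copies of mitochondrial genes followed the mitochondrially encoded genes, not the nuclear subunits. Of 10 tested, 9 were higher in ceAF mice, with a median of 0.67 for the log2 fold change. *Gm4076*, tested only through its ceAF values, was among the 3 that passed the unadjusted limit, all higher, against 3.26% of all genes. That number was 5 without ceAF-2, 6 without ceAF-3 and 2 without ceAF-5, against 3.84%, 3.7% and 2.59% of all genes. All 13 mitochondrially encoded genes were higher as well, with log2 fold changes from 0.23 to 0.87. Of these *mt-Nd2*, *mt-Atp8*, *mt-Nd5* and *mt-Nd4l*, named after their values were seen, passed that limit, which 3.26% of all genes did. The number was 8 without ceAF-2 (against 3.84% of all genes), 9 without ceAF-3 (against 3.7%) and 2 without ceAF-5 (against 2.59%). The scores of the 13 genes were -0.29, -0.14, -0.35, 0.07 and -0.45 in DSS mice and 0.80, -0.08, -0.37, 0.29 and 0.53 in ceAF mice. ceAF-1, ceAF-5 and ceAF-4 were thus above every DSS mouse, and ceAF-4 combined this with the lowest score of the nuclear subunits. The sum over the 13 genes was 40246 ± 4233 FPKM in DSS and 54097 ± 17309 FPKM in ceAF mice, and over the nuclear subunits of complexes I to V it was 7906 ± 709 and 7251 ± 1093 FPKM (SD, n = 5 each).

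Of the tested copies, 7 lie together on the reverse strand at chr1:24650616-24655278, 2 on chromosome 2 and 1 on chromosome 13. *Gm4076* (chr13:85274669-85275633), a copy of *mt-Nd5*, had 0.522, 0.200, 0.419, 0.320 and 0.480 CPM in DSS mice and 0.992, 0.911, 0.713, 0.776 and 1.37 CPM in ceAF mice. The groups did not overlap, on 4 to 25 counts per mouse. The log2 fold change was 1.29 ± 0.32 (SE), with an unadjusted edgeR p of 0.00184 and an exact permutation p of 0.00794, the smallest that 5 against 5 mice allow. Its DSS values all lay below the filter's limit, a count of 10 at the median depth, and its ceAF values above it. It was thus tested only through its ceAF values, so these p-values and the separation give no support to a difference. *mt-Nd5* itself had 2706, 2793, 2550, 3220 and 2042 CPM in DSS mice and 5712, 3862, 2613, 5033 and 6887 CPM in ceAF mice. *Gm13341* (chr2:22477303-22477974), a copy of *mt-Co2*, had 0.869, 0.600, 0.539, 0.769 and 0.720 CPM in DSS mice and 1.83, 0.911, 1.15, 1.19 and 1.26 CPM in ceAF mice. Here too the groups were separate, on 9 to 24 counts, with a log2 fold change of 0.85 ± 0.26 (SE; exact permutation p of 0.00794).

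*Gm28439*, a copy of *mt-Nd4* in the chromosome 1 cluster, had 11, 10.5, 8.38, 13.1 and 9.78 CPM in DSS mice and 20.7, 10.6, 10.4, 19.2 and 24.1 CPM in ceAF mice. ceAF-1, ceAF-4 and ceAF-5 lay above every DSS mouse, and ceAF-2 and ceAF-3 within the DSS range. Its log2 fold change was 0.69 ± 0.25 (SE), with an exact permutation p of 0.0794. Without ceAF-5 its unadjusted edgeR p was 0.0537. *Gm29216* (chr1:24654787-24655278), a copy of part of *mt-Co1* in the same cluster, behaved differently from its neighbours. It had 26.9, 40.6, 34.2, 86.4 and 35.2 CPM in DSS mice and 68.4, 22.3, 21.3, 593 and 31 CPM in ceAF mice, so that ceAF-4 alone was far above the rest. *mt-Co1* in ceAF-4 had 36335 CPM and was not the highest mouse, which was ceAF-1 at 63740 CPM. The log2 fold change of *Gm29216* was 1.72 ± 0.91 (SE) with all mice and -0.31 without ceAF-4. It was 2.01 without ceAF-2 and 2.02 without ceAF-3, with unadjusted edgeR p-values of 0.0466 and 0.0465. *Gm28438* and *Gm10222*, copies of *mt-Nd3* and *mt-Nd4l*, also varied widely, with SDs of log2 CPM of 1.25 and 0.93. All these copies are uncertain, since a read from the mitochondrial gene can be assigned to a nuclear copy.

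Genes that build the complexes or feed them were described from lists that hold no tested member. Among assembly factors 6 of 18 tested genes were lower for complex I (median 0.06), 3 of 4 for complex II (-0.12), 4 of 6 for complex III (-0.04), 11 of 21 for complex IV (-0.04) and 3 of 5 for complex V (-0.06). Of the citric acid cycle 3 of 14 genes were lower (median 0.11), of ubiquinone synthesis 5 of 13 (0.04), of electron donors, carriers and exchange 4 of 18 (0.05), and of regulators of mitochondrial biogenesis 3 of 15 (0.06). Medians of the lists thus lay on both sides of 0. ceAF-1 had the highest score in most of them and the lowest for the biogenesis regulators. From the lowest to the highest mouse the list scores differed less than those of the subunit genes: complex I assembly factors ranged from -0.24 in DSS-1 to 0.19 in ceAF-1, and the widest, ubiquinone synthesis, from -0.34 in DSS-1 to 0.31 in ceAF-1.

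At an unadjusted p under 0.05, 7 of the 114 tested genes of these lists passed (6.14%, against 6.93% of all genes), 3 lower (2.63%, against 3.67%) and 4 higher (3.51%, against 3.26%), shares near those of all genes. *Pdss1*, which starts the side chain of ubiquinone, had 10.7 ± 1.04 FPKM in DSS and 14.1 ± 2.08 FPKM in ceAF mice, a log2 fold change of 0.41 ± 0.11 (SE; exact permutation p of 0.0159). *Chdh*, choline dehydrogenase of the inner membrane, had 15.6 ± 2.63 and 20.3 ± 2.66 FPKM and a log2 fold change of 0.40 ± 0.13 (SE; exact permutation p of 0.0159). *Fh1*, fumarase, had a log2 fold change of 0.30 ± 0.13 (SE), and *Foxred1*, a complex I assembly factor, 0.26 ± 0.11 (SE). Those that were lower assist complexes IV and III, with *Cmc2* at -0.42 ± 0.17 (SE), *Cox14* at -0.30 ± 0.11 (SE) and *Uqcc2* at -0.30 ± 0.13 (SE). Exact permutation p-values of these 5 genes lay between 0.0317 and 0.0476. Each of the 5 had an edgeR p above 0.05 without some single mouse, up to 0.0943 for *Fh1* (without ceAF-5), 0.101 for *Foxred1* (without ceAF-5), 0.08 for *Cmc2* (without ceAF-3), 0.0674 for *Cox14* (without ceAF-3) and 0.1 for *Uqcc2* (without DSS-4).

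Leukocyte marker scores ran from -1.21 in ceAF-4 to 1.74 in DSS-1, a wider range than that of the subunit genes. Of the 6 leukocyte markers all were lower in ceAF mice, with a median of -1.08, and 4, *Coro1a*, *Laptm5*, *Arhgdib* and *Lcp1*, passed the unadjusted limit, which 3.67% of all genes passed in that direction. Without DSS-1 the median was -0.63 and 3 passed, against 1.92% of all genes. They summed to 242, 87.3, 96.5, 83.6 and 46 FPKM in DSS mice and to 27.8, 66.2, 65.3, 28.9 and 65.5 FPKM in ceAF mice. DSS-1 was thus highest and ceAF-1 and ceAF-4 lowest. *Coro1a* was the most abundant of them at 20 FPKM, and none was without counts. Of the 2 lowest, ceAF-1 was high and ceAF-4 lowest for the subunit genes. The part of leukocyte content in the result was not tested.

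The 10 surface colonocyte markers, of which 5 were lower (median 0.01), had scores of -0.30, 0.25, 0.14, 0.49 and -0.18 in DSS mice and 0.00, 0.18, 0.14, -0.52 and -0.20 in ceAF mice. Their extremes, DSS-4 and ceAF-4, were also extremes of the subunit genes, whereas ceAF-1 was in the middle by score. They summed to 6003, 8608, 10693, 9836 and 4885 FPKM in DSS mice and to 13363, 5361, 6777, 5295 and 4680 FPKM in ceAF mice, with *Car1* the most abundant at 2778 FPKM and none without counts. The part of surface colonocytes in the result was not tested.

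Other lists are given by their counts, medians and most abundant genes. Lower in ceAF mice were 4 of 8 pan-epithelial markers (median 0.04; *Krt8* most abundant), 7 of 8 goblet markers (-0.40; *Zg16*), 1 of 9 crypt base and cycling markers (0.36; *Pcna*) and 8 of 8 smooth muscle markers (-0.11; *Actg2*). Fibroblast markers were lower for 8 of 8 genes (-0.29; *Col3a1*), endothelial and pericyte markers for 7 of 8 (-0.28; *Rgs5*), and enteric neuron and glia markers for 7 of 9 (-0.16; *Uchl1*). All tested markers were lower for T cells (7 of 7, -1.23; *Trbc2*), B cells (7 of 7, -0.69; *Cd79a*), macrophages (8 of 8, -0.54; *Lyz2*) and neutrophils (5 of 5, -3.94; *Ly6g*). Of 10 striated muscle markers 4 were tested and 2 were lower (-0.02; *Acta1*), and *Myh4* had no count. Of 8 adipocyte markers 2 were tested and 1 was lower (-0.13; *Cidec*). Of the 107 tested markers of all lists 19 passed the unadjusted limit lower (17.8%, against 3.67% of all genes) and 1 higher (0.935%, against 3.26%). Beside those of leukocytes they were 6 T cell markers, *S100a8*, *Cxcr2*, *Csf3r* and *Retnlg* of neutrophils, *Adgre1* and *C1qa* of macrophages, *Tff3* of goblet cells, *Pdpn* of fibroblasts and *Kcnj8* of pericytes, all lower, and *Axin2* of the crypt base, higher, genes named after their values were seen. Much of this depended on DSS-1. Without it the B cell median was 0.61 with 0 of 7 markers lower, the fibroblast median 0.09 with 3 of 8 lower, the neuron and glia median 0.21 with 4 of 9 lower, and the endothelial and pericyte median -0.15. The neutrophil median was then -1.07 and the macrophage median -0.35, with 0 markers of either passing the unadjusted limit by edgeR. The T cell median without DSS-1 was -1.17 with 5 passing, against 1.92% of all genes. The macrophage calls did not depend on DSS-1 alone, as none passed without DSS-2, DSS-3, ceAF-1, ceAF-4 or ceAF-5 either. Without ceAF-1 the fibroblast median was -0.06, the goblet median -0.16 and the smooth muscle median 0.04. The smooth muscle median was 0.03 without ceAF-3, with 3 of 8 markers lower, and -0.41 without ceAF-2. It lay between -0.05 and -0.03 without DSS-1, DSS-2, DSS-5 or ceAF-4. The crypt base and cycling median was 0.18 without DSS-1 and 0.19 without ceAF-5. No marker of that list passed the unadjusted edgeR limit without DSS-1, DSS-3, DSS-4, DSS-5, ceAF-2, ceAF-3 or ceAF-5. The part of these cell types in the result was not tested. ceAF-1 had the lowest score of the 10 mice for goblet, smooth muscle, fibroblast, endothelial and pericyte, B cell, macrophage and neutrophil markers, and among the highest for the subunit genes.

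Because the subunit genes of the 5 complexes moved together between mice, their promoters were searched for motifs of factors known to bind such genes. RefSeq promoters on GRCm38.p6 were found for 67 of the 80 tested genes, with 72 start sites, and the 250 bases before each start were read on both strands. The NRF1 motif, written as GCGCANGCG, was in 15 of the 72 (20.8%) and in 5.16% of all 32851 promoters. Start sites, not genes, were counted: those of *Ndufa5* overlap and hold the same match, counted for each. The promoters compared were not matched for base composition. The ETS motif CCGGAAG, of the family of GABPA, was in 12 (16.7%, against 6.91%), the estrogen-related receptor motif AAGGTCA in 5 (6.94%, against 4.08%) and the YY1 motif AAGATGGCG in 1 (1.39%, against 0.606%). A match of letters is a description and says nothing of binding in these mice. Shown are the promoters with the most matches in complexes I, II, IV and V, 5′ to 3′ on the strand of the gene, with matches to any of the 4 motifs in capitals. They are *Ndufb4* (chr16:37654369-37654618, reverse strand), with 3 NRF1 matches and 1 of the estrogen-related receptor motif, *Sdha* (chr13:74350241-74350490, reverse strand), with 3 NRF1 matches, *Cox6a1* (chr5:115348959-115349208, reverse strand), with 2 NRF1 matches and 1 ETS match, and *Atp5l* (chr9:44920743-44920992, reverse strand), with 1 match each of the NRF1, ETS and estrogen-related receptor motifs. Within a promoter, matches of a motif that overlap, as on both strands of a palindrome, were counted once.
Ndufb4: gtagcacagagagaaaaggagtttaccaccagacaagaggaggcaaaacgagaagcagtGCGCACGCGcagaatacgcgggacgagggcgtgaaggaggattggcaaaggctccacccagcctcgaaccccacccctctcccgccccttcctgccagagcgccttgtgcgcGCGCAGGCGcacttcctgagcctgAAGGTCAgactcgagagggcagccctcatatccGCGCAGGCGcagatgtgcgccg
Sdha: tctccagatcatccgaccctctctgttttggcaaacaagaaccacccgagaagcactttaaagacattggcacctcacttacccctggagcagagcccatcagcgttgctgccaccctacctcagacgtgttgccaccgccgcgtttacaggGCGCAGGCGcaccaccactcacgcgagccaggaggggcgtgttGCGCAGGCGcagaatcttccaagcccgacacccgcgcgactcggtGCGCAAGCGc
Cox6a1: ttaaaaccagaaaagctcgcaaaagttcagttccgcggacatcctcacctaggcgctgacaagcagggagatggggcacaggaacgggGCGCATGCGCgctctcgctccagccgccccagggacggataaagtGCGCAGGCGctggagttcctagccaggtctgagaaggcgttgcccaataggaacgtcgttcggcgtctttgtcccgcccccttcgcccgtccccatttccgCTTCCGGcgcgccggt
Atp5l: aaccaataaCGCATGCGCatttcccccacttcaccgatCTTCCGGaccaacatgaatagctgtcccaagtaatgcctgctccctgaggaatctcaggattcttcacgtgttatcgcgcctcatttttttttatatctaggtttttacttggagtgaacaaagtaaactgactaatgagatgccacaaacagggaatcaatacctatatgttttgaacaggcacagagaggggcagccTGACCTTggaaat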

How the data were processed

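Poly(A) RNA of colon from 10 mice was sequenced, and groups came from the sample labels. The authors deposited a count of reads per gene, without normalization, and an FPKM value equal to that count over exonic length and library total within 0.006 for 100% of values. The submitters' notes name cutadapt 1.9.1 and HISAT2 2.2.1. The build and counting program are not given in the sources used here, so positions of genes are as deposited. Of 52073 genes found by identifier in GENCODE M21, 1472 had the same start and end there. Positions of genes and of promoters thus cannot be compared directly. Counts were tested with edgeR 4.0.16 in R 4.3.3 (filterByExpr with a minimum count of 10, TMM, quasi-likelihood, Benjamini-Hochberg over 16545 genes) and log2 CPM used a prior count of 1. Permutation p-values of single genes are exact and two-sided, from all 252 ways to assign the mice. Alternatives were upper quartile scaling, DESeq2 1.42.0, limma 3.58.1 (voom, and limma-trend on log2 FPKM with pseudocounts of 1 and 0.1), no filter or a stricter one, a replicate block, mitochondrial counts left out and each mouse left out. Promoters came from RefSeq (GRCm38.p6). Marker lists covered epithelial, colonocyte, goblet, crypt, muscle, fibroblast, adipocyte, vascular, immune and neural cells, and pathway lists covered assembly, biogenesis, electron supply, ubiquinone and the citric acid cycle. The procedure was tested on simulated data. Figures used matplotlib 3.10.9. The members and lists were chosen with earlier results of these data known. Genes named were fixed core and isoform genes, the most abundant of each complex and marker list by mean FPKM over the mice, members and up to 10 listed pathway genes at an unadjusted p under 0.05, and the 5 most variable members.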

Additional observations from a re-analysis of the deposited data

Results flagged for a closer look

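Of 220 groups of 5 mice looked at, 19 held a mouse far from the other 4, and chance alone flags about 1 in 20 groups. DSS-1 was apart from the other DSS mice in the scores of fibroblast markers (1.17, others -0.15 to 0.05), endothelial and pericyte markers (0.74, others -0.09 to 0.15), B cell markers (2.48, others -0.44 to -0.01) and pyrophosphatases (-0.33, others 0.07 to 0.21). On log2 CPM, DSS-1 was high for *Cd79a* (5.57, others 2.92 to 3.37), *Lyz2* (7.92, others 6.49 to 6.87) and *Col3a1* (8.52, others 7.42 to 7.71), and low for *Ndufs1* (6.53, others 7.07 to 7.18) and *Uqcrc2* (7.39, others 7.95 to 8.10). DSS-5 was low in the T cell score (-0.77, others 0.63 to 1.14), *Trbc2* (2.81, others 4.10 to 4.32) and *Cidec* (2.38, others at least 3.81), and DSS-4 was high for *Cox8a* (8.18, others 7.78 to 7.88). Among ceAF mice, ceAF-1 was high for *Cox4i1* (9.85, others 8.62 to 8.92) and in the score of complex IV assembly factors (0.27, others -0.16 to -0.05), and low for *Zg16* (9.66, others 10.95 to 11.44). ceAF-4 was low for *Uqcrc2* (7.79, others 8.11 to 8.22) and in the citric acid cycle score (-0.26, others 0.08 to 0.19). ceAF-2 was high for *Atp6v0d1* (6.89, others 6.48 to 6.55). Why these mice stood apart was not tested.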

How the results depend on the processing

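No member had an adjusted p-value under 0.05 by edgeR, DESeq2 or limma in any setting run. The medians of the complexes, between -0.15 and -0.02 with all mice, were small, and several moved by more than their own size without a single mouse. Those of complexes III and V were 0.10 and 0.06 without ceAF-4, and that of complex IV was -0.30 without ceAF-1. The number of members lower in ceAF mice at an unadjusted p under 0.05, 4 as reported, was 14, 13 and 15 by limma-trend on log2 FPKM with pseudocounts of 1, 0.1 and 1 without a filter (of 184, 184 and 232 members tested, against 3.77%, 3.91% and 3.18% of all genes), 1 with the replicate block (of 142, against 2.06%), and from 0 (without ceAF-4) to 28 (without ceAF-1) when a mouse was left out. The number higher, also 4, was 7 of 232 without a filter (against 2.33%) and 2 of 135 with a stricter one (against 3.54%). With all mice and complexes I to V only, edgeR called 0 lower and 0 higher, DESeq2 likewise 0, limma voom 1 lower and limma-trend 6 lower of 82 in each of its settings. Without ceAF-1 edgeR called 20 of them lower (against 5.94%) and without DSS-5 it called 1 (against 4.54%). The log2 fold change of *Atp12a*, 0.39 as reported, was -0.39 by limma voom, -0.31, -0.39 and -0.31 by limma-trend in the order above, -0.09 with the replicate block, and from -0.16 (without ceAF-2) to 1.45 (without DSS-5) when a mouse was left out. That of *Gm29216* ran from -0.31 (without ceAF-4) to 2.10 (without DSS-4). Over all alternatives for the single genes rerun, *Atp12a* and *Gm29216* among them, 7 values reversed direction. Of the rest, 436 kept their direction and side of the unadjusted limit, 77 kept their direction but no longer passed it and 18 newly passed it. The cause was not tested. The labels pair mice only by number: for a block, the correlations of deviations within pairs 1 to 5 were -0.249, -0.136, -0.00428, -0.159 and 0.286. Depth limits genes with few reads, such as *Gm4076* and *Gm13341* with 4 to 25 and 9 to 24 counts per mouse.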
